A study of Arabidopsis thaliana with 9 samples.

Results

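Receptor-like proteins (RLPs) are cell-surface receptors that carry leucine-rich repeats outside the cell and a single membrane span, but no kinase domain of their own. In Arabidopsis several of them detect molecules from microbes, and they signal together with the receptor kinase SOBIR1, which holds them in a complex, and with the co-receptor BAK1, which joins once a ligand is bound. Other members of the family act in development. Here the transcript levels of the RLP genes were compared in leaves that had carried eggs of the butterfly Pieris brassicae, in leaves treated with an extract of these eggs (egg extract, EE) and in untreated leaves.

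The RLP genes were taken as all genes whose deposited description opens with the words receptor like protein and a number, or whose gene name is RLP or AtRLP with a number, other than AT2G32680, which the rule leaves out. This gave 44 genes of the 17605 in the table, and all 44 met the rule by both description and name. Their numbers run to RLP57, and 13 numbers have no member here. The developmental receptors CLV2 and TMM are not among the 44, and their levels were not tested. There are 12 members on chromosome 1, 8 on chromosome 2, 15 on chromosome 3, 4 on chromosome 4 and 5 on chromosome 5. Their reference coding sequences hold between 279 and 1083 codons with a median of 853.5, and 29 of the 44 are made of 1 coding segment. None of the 44 translations held the kinase letters HRD, HGD or HCD followed at a short distance by DFG, a pattern that those of SOBIR1 and BAK1 did hold. The leucine-rich repeat pattern LxxLxLxxN, in which x is any residue, was found 2 to 15 times in each of the 44, with a median of 10. That pattern was chosen after the translations had been seen, and a first pattern with one more residue, LxxLxxLxxN, was found in 6.

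All plants were of the ecotype Col-0 and 5 weeks old, and the organ was the leaf. For oviposition, plants stood with butterflies for 24 h, then 4 plants with an egg batch on each of 2 leaves were kept for 4 days, and the eggs were taken off before they hatched. For EE, 2 drops of 2 µl were put under each of 2 leaves of 4 plants for 5 days. Control plants were left untreated, so that contact with a liquid or an insect is not matched in the control, and the time of exposure differed between both treatments. RNA came from 3 independent experiments, which gave 3 libraries per group and 9 in all.

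Levels are deposited log2 normalized counts (CPM, reads scaled to a common library size), a scale on which a difference of 1 is a doubling. The whole read numbers behind the values could be recovered and summed to between 37348236 and 47057692 per library. A log2 value of 0 stood for 29.41 to 51.36 reads, and a gene without a read was listed at -6.65 to -5.99. The leaf markers RBCS1A (small subunit of Rubisco, mesophyll), SUC2 (phloem companion cells) and ATML1 (epidermis) were read in every library, while the root markers MYB36, CASP1 and COBL9 are not among the genes analysed here. The light-harvesting gene LHCB2.1 was at 6.93, 6.16 and 5.70 in replicate 2 of control, oviposition and EE and at 9.97 or more in the other 6 libraries, and its part in the results was not tested. In leaf RNA of this kind, a change in the number of cells of a type and a change in RNA per cell cannot be told apart.

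Short stretches upstream of 7 members are shown first, because most RLP genes held one DNA motif there. The motif is the W-box, here TTGACC or TTGACT on either strand, which is bound by WRKY transcription factors. In a window of 250 bases before to 50 bases after the deposited gene start, 34 of the 44 members (77.3%) held at least 1 W-box, against 32.5% of the 17523 genes of the table for which the window could be read. A second motif, the core TGACG bound by TGA factors, was present in 11 members (25%) and in 26.8% of all genes. The deposited interval of 20 members runs from a start codon to a stop codon. For them the window is placed at that start codon and not at a transcript start. For RLP11, RLP21, RLP39, RLP41, RLP53 and RLP56 among these, the RefSeq coding sequence reaches outside the deposited interval. Their windows may therefore hold coding sequence before the deposited start. A match is a description of the letters and no evidence of binding. Each stretch below is written 5′ to 3′ on the strand of its gene, with 12 bases on either side of a W-box in capitals. The 7 members were picked without a rule, and others with a W-box, such as RLP40 with 3, are not shown. The W-box shown is the one nearest the deposited start, except in RLP28, where the nearest one reading AGTCAA was taken. How alike the stretches look depends on these choices.
RLP39: taacttcttccaAGTCAAtttgtgctccac
RLP41: taacttcttccaAGTCAAtttgtgctccac
RLP42: taaattcttccaAGTCAAtttgggctccac
RLP28: taacttcttataAGTCAAtttgtgctccaa
RLP24: taacttcttctaAGTCAActtgtagctcca
RLP20: tgacttcttataAGTCAAgttatgtttcaa
RLP52: tttcatattcacAGTCAAactcggttgccg
The genes sit in different places. The stretch of RLP39 is chr3:9101932-9101961 (minus strand), that of RLP41 is chr3:9112843-9112872 (minus strand) and that of RLP42 is chr3:9119636-9119665 (minus strand). The stretch of RLP28 is chr2:14031884-14031913 (plus strand), that of RLP24 is chr2:14016608-14016637 (minus strand) and that of RLP20 is chr2:10826620-10826649 (plus strand). The stretch of RLP52 is chr5:9038790-9038819 (plus strand). Coordinates are those of TAIR10, and the letters were read from the RefSeq sequence of TAIR10.1. In wider windows of 100 bases around the same W-box, RLP41 matched RLP39 at 100 positions, RLP42 at 90, RLP24 at 77, RLP28 at 76, RLP20 at 66 and RLP52 at 54. The stretches of RLP39, RLP41 and RLP42 lie inside transcripts of the RefSeq annotation. The wider windows of RLP39 and RLP41 may also hold RefSeq coding sequence. A run of 18 bases, aagtcaatttgtgctcca, was shared by RLP28, RLP39 and RLP41 within 250 bases before the start and occurred in 3 of the 17523 genes, which are these members. This run was looked for after the windows had been seen.

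Oviposition raised 7 of the 44 RLP genes and lowered 0. The raised members were RLP20, RLP21, RLP22, RLP28, RLP39, RLP41 and RLP52. They make up 15.9% of the RLP genes, while 1.49% of all 17605 genes were raised and 0.00568% were lowered at the same threshold, a limma p of under 0.05 after Benjamini-Hochberg adjustment over all genes. The 3 oviposition libraries all lay above the 3 control libraries in 16 members, against 5.96% of all genes, and all lay below in 0 members, against 3.28% of all genes. The median log2 fold change was 0.66 over the 44 members and -0.02 over all genes. The mean was higher after oviposition in 28 members, against 47.7% of all genes. At an unadjusted p of under 0.05 there were 17 members, 16 of them higher, against 7.69% of all genes.

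EE raised 10 of the 44 and lowered 0. These were RLP3, RLP7, RLP20, RLP22, RLP28, RLP35, RLP39, RLP40, RLP41 and RLP52, or 22.7% of the RLP genes, against 2.73% of all genes raised and 0.29% lowered. In 18 members the 3 EE libraries all lay above the 3 controls, against 9.12% of all genes. All lay below in 3 members (RLP4, RLP45 and RLP57), against 9.71% of all genes. The median log2 fold change was 0.57 over the 44 members and -0.04 over all genes. The mean was higher after EE in 36 members, against 46.9% of all genes. An unadjusted p of under 0.05 was reached by 18 members, 17 of them higher, and by 13.4% of all genes. Both comparisons use the same 3 control libraries, so the 6 members raised in both are not independent of each other. RLP21 passed the threshold for oviposition alone, and RLP3, RLP7, RLP35 and RLP40 did so for EE alone.

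**Figure D1:**
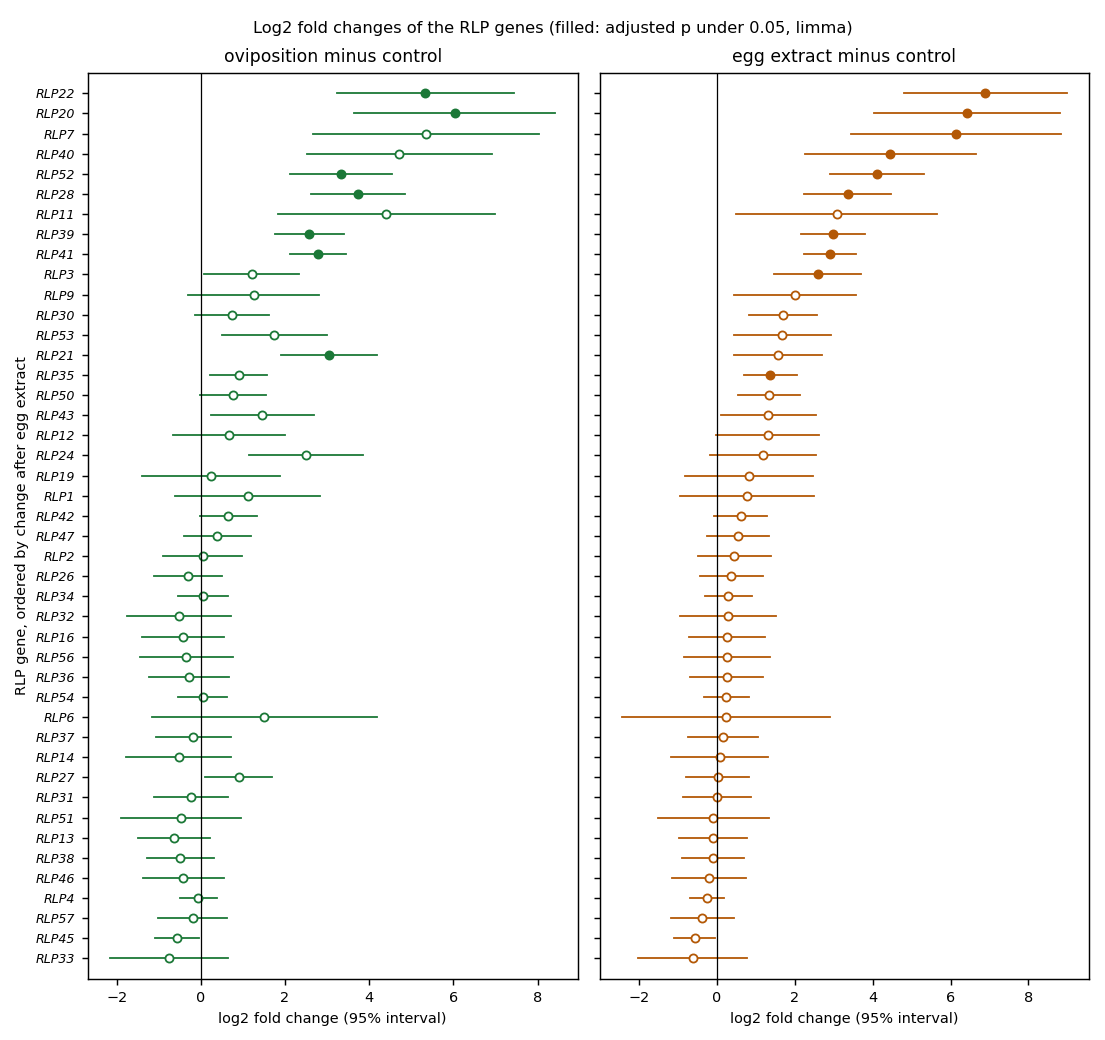
Log2 fold change (x axis) with its 95% interval for each of the 44 RLP genes (y axis, ordered by the change after EE), oviposition minus control on the left and EE minus control on the right. Filled points have a limma adjusted p under 0.05, and they number 7 on the left and 10 on the right, all to the right of 0.

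Control replicate 3 bears on these counts. It was the lowest of the controls in 33 of the 44 members, with a median deviation from the control mean of -0.59 over the members and 0.04 over all genes. Its library size as used in the normalization was 0.70 times its read total, while this ratio was 0.857 to 1.20 in the other libraries. Without it, 8 members were raised by oviposition and 9 by EE, and the median change of the members was 0.12 and 0.21. Oviposition replicate 1 was the lowest of its group in 32 members, with a median deviation of -0.45, and oviposition replicate 3 the highest in 31, with a median deviation of 0.47. Without oviposition replicates 1, 2 and 3 in turn, oviposition raised 4, 3 and 2 members, and without EE replicates 1, 2 and 3 in turn, EE raised 4, 5 and 6. Oviposition raised 4 members when EE replicate 1 or 3 was left out of the shared fit, and EE raised 6 without control replicate 1. With voom on the recovered reads, with vooma weights or with only the 2 groups compared, oviposition raised 1 member each time (RLP41) and EE raised 5. In each of these 3 fits EE raised RLP22, RLP39, RLP41 and RLP52, together with RLP3 in both weighted fits and RLP28 in the fit of the 2 groups. The part of these libraries in the median shift of the family was not tested.

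**Figure D2:**
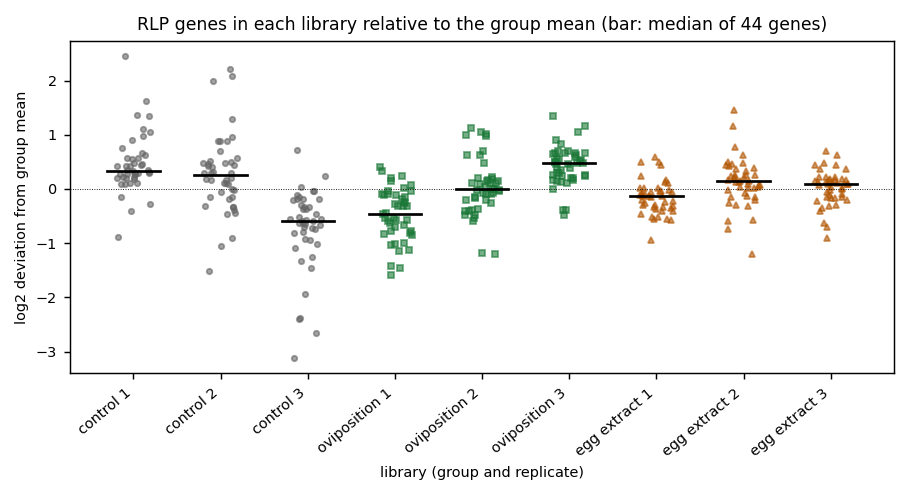
Deviation of each RLP gene from the mean of its group (y axis, log2) in each of the 9 libraries (x axis), with 1 point per gene and a bar at the median of the 44. The bar lies at -0.59 in control replicate 3, at -0.45 in oviposition replicate 1 and at 0.47 in oviposition replicate 3, and within 0.34 of 0 in the other libraries.

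Most of the raised members had few reads in untreated leaves, with RLP41 and RLP35 the highest at 717 and 599 reads over the 3 controls. The median control level of the 11 members raised by either treatment was -2.65 (log2 CPM per kb of coding sequence), and that of the other 33 was 2.14. In controls, the mean log2 level was below 0 in 7 of these 11 and in 3 of the other 33. Among all 911 genes of the table with a control mean below 0, 20% were raised by oviposition and 31% by EE, while 60% of the 10 RLP genes of this kind were raised by each. The controls both select these genes and enter their fold changes, so these shares are descriptions.

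**Figure D3:**
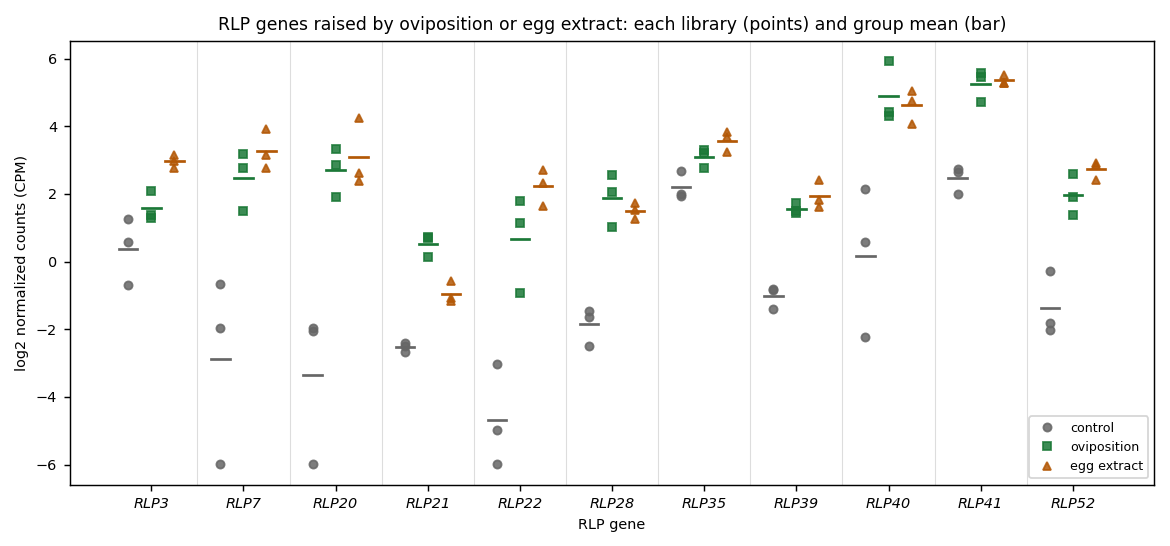
Log2 normalized counts (CPM, y axis) of the 11 RLP genes raised by either treatment (x axis), with 1 point per library and a bar at each group mean. Both treatments lie above the 3 controls in every one of these genes, and RLP40 and RLP41 reach the highest treated levels.

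A cluster of neighbouring genes on chromosome 3, RLP39 to RLP42 (chr3:9099183-9119540), held 3 of the 10 members raised by EE. RLP42, also named RBPG1, is the receptor in this cluster with a known ligand, since it detects endopolygalacturonases that fungi use to break down pectin. RLP41 (AT3G25010) was at 2.73, 2.64 and 2.00 in controls, at 5.56, 4.71 and 5.45 after oviposition and at 5.29, 5.52 and 5.27 after EE. All 6 treated libraries lay well above the controls, and both treatments overlapped each other. Oviposition raised RLP41 by 2.78 ± 0.29 (log2, SE; 6.87-fold; limma adjusted p = 0.00358) and EE raised it by 2.90 ± 0.29 (7.47-fold; adjusted p = 0.00138). RLP41 was the only member that passed the threshold for oviposition under every alternative tried.

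RLP39 (AT3G24900) was at -0.82, -0.85 and -1.40 in controls, at 1.45, 1.49 and 1.73 after oviposition and at 1.82, 2.42 and 1.61 after EE. The groups of treated libraries lay apart from the controls by more than the spread within any group. The rise was 2.58 ± 0.36 (limma adjusted p = 0.0105) after oviposition and 2.97 ± 0.36 (adjusted p = 0.00311) after EE. The call for oviposition ended without oviposition replicate 2 (adjusted p = 0.0537) or 3 (adjusted p = 0.0589), with vooma weights (adjusted p = 0.0708), with voom (adjusted p = 0.0725), with quantile normalization (adjusted p = 0.0567) and with only the 2 groups (adjusted p = 0.102). The call for EE held under every alternative.

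RLP40 (AT3G24982) varied more among the controls, at 0.58, 2.15 and -2.24, and was at 4.30, 5.93 and 4.41 after oviposition and 4.07, 5.05 and 4.75 after EE. No treated library came near the controls, which themselves ran from 6 to 215 reads. The difference was 4.71 ± 0.97 for oviposition, with a limma adjusted p of 0.0569 that misses the threshold, and it passed without control replicate 2 (adjusted p = 0.017) or 3 (adjusted p = 0.0454). EE raised RLP40 by 4.45 ± 0.97 (adjusted p = 0.0463). Of the 9 fits that left out 1 library, only those without control replicate 2 or control replicate 3 kept this call. The others gave an adjusted p of up to 0.173. The EE call ended with vooma weights (adjusted p = 0.0712), voom (adjusted p = 0.0785) or only the 2 groups (adjusted p = 0.109). It also ended without the intensity trend (adjusted p = 0.0559) and with a mean log2 level of at least 0 (adjusted p = 0.0561).

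RLP42 (AT3G25020) stood at a higher level from the start, at 5.77, 4.68 and 5.00 in controls, 6.06, 5.42 and 5.94 after oviposition and 5.78, 5.91 and 5.60 after EE. The groups overlapped. Its differences were 0.66 ± 0.30 (limma adjusted p = 0.693) and 0.61 ± 0.30 (adjusted p = 0.45). These 4 genes are close copies of each other. In coding sequence RLP40 and RLP42 were 95.69% identical, with an identical run of 244 bases, RLP39 and RLP41 were 91.2% identical, and the other pairs were 89.68% to 91.53% identical. Reads from shared stretches could have been given to the wrong copy or dropped, and how many was not tested. The RefSeq gene AT3G24929 covers RLP40 on the opposite strand and AT3G25012 covers 483 of the 2646 bases of RLP41, and whether reads were counted by strand is not given in the sources used here.

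**Figure D4:**
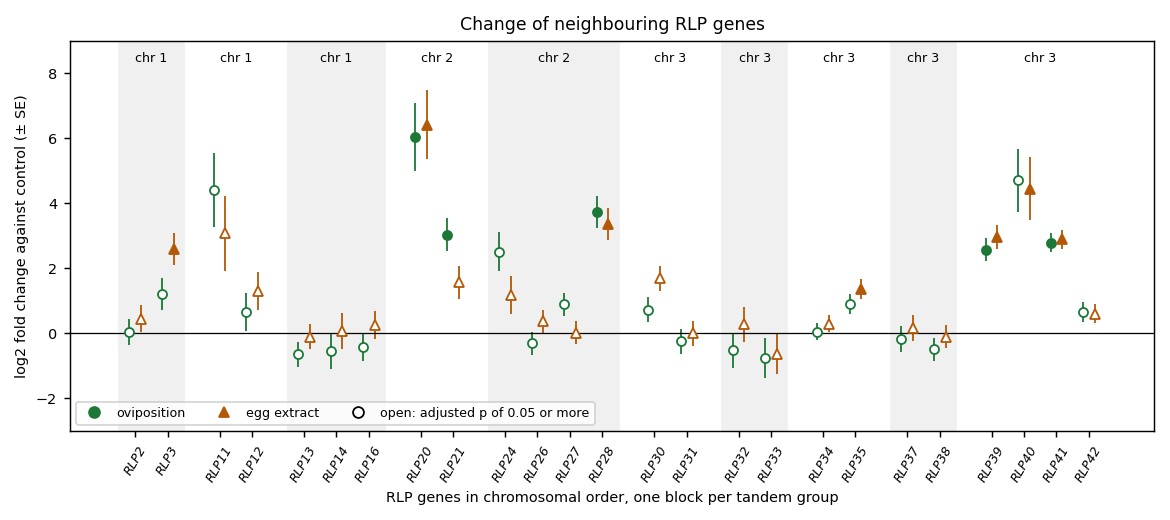
Log2 fold change against control ± SE (y axis) of the 25 RLP genes that lie within 20 kb of another RLP gene, in chromosomal order with 1 block per group of neighbours (x axis). Circles are oviposition and triangles are EE, and filled symbols have a limma adjusted p under 0.05. Neighbours within a block differ, as in the last block, where RLP39, RLP40 and RLP41 lie between 2.58 and 4.71 and RLP42 lies at 0.66 and 0.61.

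Neighbours also differed on chromosome 2. In all, 25 of the 44 members fell into 10 groups with gaps of at most 20 kb, and 8 of the 11 raised members were among them. In the group of RLP24, RLP26, RLP27 and RLP28 (chr2:14013874-14034237), RLP28 alone passed the threshold. RLP28 (AT2G33080) was at -1.64, -1.45 and -2.48 in controls, at 1.02, 2.05 and 2.55 after oviposition and at 1.51, 1.72 and 1.27 after EE. Its treated libraries all lay far above the highest control. The rise was 3.73 ± 0.49 (13.25-fold; limma adjusted p = 0.00833) and 3.36 ± 0.49 (10.24-fold; adjusted p = 0.00786). The call for oviposition held whichever library was left out. It ended with vooma weights (adjusted p = 0.0792), with voom (adjusted p = 0.0725) and with only the 2 groups (adjusted p = 0.0765). The call for EE ended without EE replicate 1 (adjusted p = 0.0501). It also ended with vooma weights (adjusted p = 0.0608) and with voom (adjusted p = 0.0521).

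RLP24 (AT2G33020), whose upstream stretch is shown above, was at -1.85, -0.80 and -0.23 in controls, 0.92, 2.56 and 1.15 after oviposition and -0.15, 0.15 and 0.66 after EE. The oviposition libraries lay above all others. Its differences from control were 2.51 ± 0.60 (limma adjusted p = 0.103) and 1.18 ± 0.60 (adjusted p = 0.463). RLP26 and RLP27, the members between them, had differences of -0.30 and 0.89 for oviposition and of 0.37 and 0.02 for EE, none past the threshold. The coding sequences of this group were 76.05% to 80.7% identical, with identical runs of at most 43 bases.

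The pair RLP20 and RLP21 (chr2:10826735-10841881) rose from very few reads. RLP20 (AT2G25440) had 11, 11 and 0 reads in the controls, which put it at -1.97, -2.05 and -5.99, and it was at 1.92, 3.32 and 2.85 after oviposition and at 2.62, 4.25 and 2.39 after EE. Every treated library held at least 143 reads. On the deposited scale the rise was 6.04 ± 1.05 (limma adjusted p = 0.0272) and 6.42 ± 1.05 (adjusted p = 0.0127), and it was 2.70 and 3.05 once 1 CPM was added before the logarithm. The control library without a read pulls the first values up. Both calls ended with vooma weights (adjusted p = 0.18 and 0.0781) and with voom (adjusted p = 0.188 and 0.0785). They also ended with only the 2 groups (adjusted p = 0.116 and 0.0502). The call for oviposition ended without any 1 oviposition library (adjusted p = 0.0585, 0.126 and 0.117) and without EE replicate 1 (adjusted p = 0.0604) or 3 (adjusted p = 0.0569), and the call for EE ended without EE replicate 1 (adjusted p = 0.055) or 2 (adjusted p = 0.054).

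RLP21 (AT2G25470) was at -2.41, -2.66 and -2.48 in controls, with 8, 7 and 5 reads, at 0.73, 0.70 and 0.15 after oviposition and at -1.16, -0.58 and -1.09 after EE. The 3 groups did not overlap, with EE between control and oviposition. Oviposition raised it by 3.04 ± 0.50 (limma adjusted p = 0.0201), and the difference for EE was 1.57 ± 0.50 (adjusted p = 0.182). The oviposition call ended with vooma weights (adjusted p = 0.0636), voom (adjusted p = 0.0605) or only the 2 groups (adjusted p = 0.13). Quantile normalization took the oviposition value down to an adjusted p of 0.475 and turned the sign of the EE value to -0.44, and the call for oviposition also ended without any 1 oviposition library (adjusted p = 0.0762 to 0.108) or without EE replicate 1 (adjusted p = 0.0559) or 3 (adjusted p = 0.0541).

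RLP22 (AT2G32660) had the fewest control reads among the raised members, with 5, 1 and 0. It was at -3.03, -4.97 and -5.99 in controls, at -0.92, 1.78 and 1.14 after oviposition and at 2.72, 1.65 and 2.32 after EE. After EE it held 164 to 311 reads, and after oviposition 20 to 150. The rise was 5.33 ± 0.93 (limma adjusted p = 0.0266) for oviposition and 6.90 ± 0.93 (adjusted p = 0.00489) for EE. With 1 CPM added these became 1.40 (adjusted p = 0.217) and 2.44 (adjusted p = 0.0126). The oviposition call ended with vooma weights (adjusted p = 0.208), voom (adjusted p = 0.209) or only the 2 groups (adjusted p = 0.175). Quantile normalization ended it too (adjusted p = 0.15). The call for EE held whichever library was left out, while the call for oviposition held only without control replicate 1 or oviposition replicate 1 and otherwise rose to an adjusted p of up to 0.125.

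RLP52 (AT5G25910), which takes part in resistance to powdery mildew, was at -0.26, -1.82 and -2.03 in controls, at 1.92, 1.37 and 2.59 after oviposition and at 2.86, 2.42 and 2.91 after EE. The treated groups overlapped each other and not the controls. Oviposition raised it by 3.33 ± 0.53 (10.06-fold; limma adjusted p = 0.0183) and EE by 4.10 ± 0.53 (17.19-fold; adjusted p = 0.00418). The call for EE held under every alternative. The call for oviposition ended without oviposition replicate 1 (adjusted p = 0.0582) or 3 (adjusted p = 0.0901), with vooma weights (adjusted p = 0.0863), with voom (adjusted p = 0.0847) and with only the 2 groups (adjusted p = 0.13).

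RLP7 (AT1G47890) had 11, 30 and 0 control reads, which put it at -1.97, -0.65 and -5.99, and it was at 1.49, 3.17 and 2.77 after oviposition and at 2.76, 3.91 and 3.16 after EE. All treated libraries lay well above the highest control. The difference was 5.34 ± 1.19 for oviposition, with a limma adjusted p of 0.0786 that misses the threshold, and with 1 CPM added it was 2.38 and passed (adjusted p = 0.0319). EE raised it by 6.15 ± 1.19 (adjusted p = 0.0272), or by 3.07 with 1 CPM added (adjusted p = 0.0048). The EE call ended with vooma weights (adjusted p = 0.0608), voom (adjusted p = 0.0601) or only the 2 groups (adjusted p = 0.0827). Without control replicate 3, the library with 0 reads, the differences were 3.78 (adjusted p = 0.035) and 4.59 (adjusted p = 0.0099), both past the threshold, as was oviposition without control replicate 2 (adjusted p = 0.0279). The call for EE ended without control replicate 1 (adjusted p = 0.0628), oviposition replicate 3 (adjusted p = 0.0555) or any 1 EE library (adjusted p = 0.0937, 0.105 and 0.11).

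RLP3 (AT1G17250), also named RFO2, takes part in resistance to the wilt fungus Fusarium oxysporum and lies next to RLP2 on chromosome 1. It was at 0.58, 1.27 and -0.70 in controls, at 1.28, 1.39 and 2.09 after oviposition and at 2.99, 2.77 and 3.15 after EE. The EE libraries lay above all 6 others, and the lowest oviposition library lay just above the highest control. EE raised it by 2.59 ± 0.50 (limma adjusted p = 0.0261), and the difference for oviposition was 1.21 ± 0.50 (adjusted p = 0.567). The call for EE ended without control replicate 1 (adjusted p = 0.0692) or any 1 EE library (adjusted p = 0.116, 0.0819 and 0.131). It also ended with only the 2 groups (adjusted p = 0.0724). The RefSeq gene AT1G17255 covers RLP3 on the opposite strand. RLP2, whose coding sequence is 80.97% identical, differed from control by 0.05 and 0.45.

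RLP35 (AT3G11080) was at 1.93, 2.69 and 1.99 in controls, at 2.78, 3.22 and 3.31 after oviposition and at 3.23, 3.82 and 3.67 after EE. Controls and treated libraries did not overlap, although the highest control came close to the lowest oviposition library. EE raised it by 1.37 ± 0.30 (2.59-fold; limma adjusted p = 0.0472), and the difference for oviposition was 0.90 ± 0.30 (adjusted p = 0.349). The EE call held in only 1 of the 9 fits with a library left out, that without control replicate 2. The adjusted p otherwise rose to as much as 0.213. The call ended with vooma weights (adjusted p = 0.0631), voom (adjusted p = 0.0675) or only the 2 groups (adjusted p = 0.115). Quantile normalization (adjusted p = 0.0622) and a mean log2 level of at least 0 (adjusted p = 0.054) ended it too. Its neighbour RLP34 differed by 0.05 and 0.29, and both are 86.66% identical in coding sequence with an identical run of 242 bases.

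Of the members known to detect a microbial molecule, RLP1, RLP30, RLP32 and RLP42 (above) did not pass the threshold. RLP30, which responds to a protein of the fungus Sclerotinia, was at 1.25, 1.44 and 0.25 in controls, 1.26, 1.93 and 1.95 after oviposition and 2.42, 2.81 and 2.79 after EE. The EE libraries were above all others. Its differences were 0.73 ± 0.39 (limma adjusted p = 0.81) and 1.69 ± 0.39 (adjusted p = 0.057), and EE passed the threshold without control replicate 2 (adjusted p = 0.0401), with 1 CPM added (adjusted p = 0.0416) or without the intensity trend (adjusted p = 0.0437). The RefSeq gene AT3G05350 covers RLP30 on the same strand. RLP32, which detects a bacterial translation initiation factor, differed by -0.52 ± 0.54 (adjusted p = 0.998) and 0.28 ± 0.54 (adjusted p = 0.877). RLP1, also named ReMAX, responds to an elicitor from Xanthomonas bacteria and was at 2.37, 2.19 and -0.63 in controls, 1.64, 2.54 and 3.09 after oviposition and 1.69, 2.34 and 2.25 after EE. Only control replicate 3 stood apart. Its differences were 1.11 ± 0.76 (adjusted p = 0.976) and 0.78 ± 0.76 (adjusted p = 0.763), and the value for EE was -0.18 without that library. RLP51, also named SNC2, whose altered form activates immunity without a pathogen, differed by -0.47 ± 0.63 (adjusted p = 0.998) and -0.09 ± 0.63 (adjusted p = 0.968).

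RLP11 was the member with the largest difference for oviposition among those outside the raised set other than RLP7 and RLP40. It had 7, 0 and 0 reads in controls, 20, 28 and 33 after oviposition and 17, 13 and 6 after EE. The differences were 4.40 ± 1.14 (limma adjusted p = 0.142) and 3.07 ± 1.14 (adjusted p = 0.269), and with 1 CPM added they were 0.63 and 0.26. Oviposition passed the threshold for RLP11 without control replicate 1 (adjusted p = 0.0343), which leaves 2 controls that both hold 0 reads. Across all 37 members that oviposition did not move past the threshold, the log2 fold changes ran from -0.76 to 5.34. Across the 34 that EE did not move past it, they ran from -0.62 to 3.07.

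The members with the highest levels did not move past the threshold with either treatment. Per kb of coding sequence and as a mean over the 9 libraries, RLP54 stood at 5.60, RLP19 at 5.59 and RLP4 at 4.93 on the log2 CPM scale, and RLP22, RLP21 and RLP11 were lowest at -1.80, -2.53 and -3.79. RLP54 and RLP19 did not differ beyond their spread, since RLP19 alone ran from 5.74 to 8.21 (log2 CPM) over the libraries. RLP4, which has malectin-like parts besides its repeats and is found at cell edges, was at 6.05, 5.90 and 5.91 in controls, 5.63, 5.86 and 6.18 after oviposition and 5.57, 5.73 and 5.77 after EE. The EE libraries lay just below the controls. The differences of RLP4 were -0.06 ± 0.20 (limma adjusted p = 0.998) and -0.26 ± 0.20 (adjusted p = 0.67). For RLP54 they were 0.04 ± 0.26 (adjusted p = 0.998) and 0.24 ± 0.26 (adjusted p = 0.789), and for RLP19 0.24 ± 0.73 (adjusted p = 0.998) and 0.83 ± 0.73 (adjusted p = 0.732).

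A direct comparison of EE with oviposition called 0 of the 44 members by limma, against 0.0114% of all genes raised and 0.00568% lowered. An unadjusted p of under 0.05 was found for 4 members (RLP3, RLP21, RLP27 and RLP30) and for 2.85% of all genes, and a second tool, voom on the recovered reads, also called 0. The EE libraries all lay above the oviposition libraries in 5 members (RLP3, RLP12, RLP16, RLP26 and RLP30), against 4.28% of all genes, and all lay below in 4 (RLP11, RLP21, RLP24 and RLP27), against 6.06% of all genes. RLP21 was lower after EE by a log2 difference of -1.47 ± 0.50 (unadjusted p = 0.0167; adjusted p = 0.999, limma). RLP3 was higher after EE by 1.38 ± 0.50 (unadjusted p = 0.0216; adjusted p = 0.999, limma). The members that passed the threshold with only 1 of the treatments are therefore not shown to differ between them, and the median difference over the 44 was 0.36, against -0.04 over all genes. That median was 0.12 without oviposition replicate 1 and 0.22 without EE replicate 3.

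The W-box was present in 10 of the 11 raised members and in 24 of the other 33, and among the raised members RLP22 held none. RLP28 and RLP40 held 3 each. The TGA core was found in 5 of the 11 and in 6 of the other 33. Raised members had a median of 912 codons and the others of 847, and 7 of the 11 and 22 of the 33 were made of 1 coding segment.

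The genes that RLPs signal through were read in the same fit. Of 27 partners listed, 24 are in the table, 18 of them immune partners and 6 partners of the developmental receptors CLV2 and TMM. Oviposition raised 0 and lowered 0 of the 24 by limma, with a median log2 fold change of -0.07 and 4 partners at an unadjusted p of under 0.05 (7.69% of all genes), and voom on the recovered reads also called 0. EE raised 2 of the 24, against 2.73% of all genes, and lowered 0. The median after EE was 0.19, and 7 partners were at an unadjusted p of under 0.05 (13.4% of all genes). These medians pool both lists. The 6 CLV2 and TMM partners differed by -1.21 to -0.10 after oviposition, and the 18 immune partners by -0.73 to 0.99. After EE, CRN, ERECTA, ERL2 and STOMAGEN of the CLV2 and TMM list differed by -0.61, -1.03, -0.99 and -2.37. In each of these, the EE libraries lay below the controls. The EE differences of CLV1 and BAM1 were 0.30 and -0.23, and those of the immune partners ran from -0.39 to 1.70. SOBIR1 was at 7.43, 6.47 and 7.38 in controls, 8.22, 7.30 and 7.89 after oviposition and 8.32, 7.58 and 8.08 after EE. Replicate 2 was the lowest in each group, the EE libraries lay above the controls, and the oviposition libraries overlapped both. The differences of SOBIR1 were 0.71 ± 0.36 (limma adjusted p = 0.793) and 0.90 ± 0.36 (adjusted p = 0.32), and those of BAK1 were -0.04 ± 0.20 (adjusted p = 0.998) and 0.08 ± 0.20 (adjusted p = 0.915).

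The partners raised by EE, BIK1 and RBOHD, act after a receptor complex has formed. BIK1, a cytoplasmic kinase that receptor complexes activate, was at 3.45, 3.25 and 3.44 in controls, 4.34, 4.22 and 4.54 after oviposition and 4.76, 4.35 and 4.83 after EE. All 6 treated libraries lay above the controls. EE raised BIK1 by 1.27 ± 0.21 (limma adjusted p = 0.0126), and for oviposition the difference was 0.99 ± 0.21 (adjusted p = 0.0614). RBOHD, the oxidase that makes the burst of reactive oxygen in immunity, was at 5.45, 6.57 and 5.26 in controls, 5.90, 6.44 and 6.17 after oviposition and 7.46, 7.35 and 7.56 after EE. The EE libraries stood above all others. EE raised RBOHD by 1.70 ± 0.34 (adjusted p = 0.0315), against 0.41 ± 0.34 (adjusted p = 0.998) for oviposition. Without EE replicate 1 or without EE replicate 3, EE called 0 of the 24 partners, and RBOHD also lost its call without control replicate 1, control replicate 3, oviposition replicate 3 or EE replicate 2. STOMAGEN, a peptide of the CLV2 and TMM list that promotes stomata, was at 2.74, 0.28 and 2.77 in controls, 0.90, 0.30 and 0.96 after oviposition and 0.13, -0.86 and -0.57 after EE. Its EE libraries lay below all others. The difference for EE was -2.37 ± 0.67 (adjusted p = 0.13), and it passed the threshold with the replicate block (adjusted p = 0.0425), with quantile normalization (adjusted p = 0.0465) or without control replicate 2 (adjusted p = 0.008). Among the immune regulators that RLPs depend on, EDS1, PAD4 and SAG101 differed from control by -0.39 to 0.61, none past the threshold. ADR1, ADR1-L1 and ADR1-L2, from the same list, differed by 0.98, 0.22 and 0.64 after oviposition and by 0.92, 0.37 and 0.74 after EE. None of these passed the threshold either. All 6 treated libraries of ADR1-L2 lay above its controls (limma adjusted p = 0.212 for oviposition and 0.0841 for EE).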

How the data were processed

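The authors mapped the reads to TAIR10 with STAR, scaled the counts by TMM and library size (tools in the submitters' processing notes are cutadapt 1.5, HTSeq, edgeR 3.4.0 and limma 3.2) and deposited a single table of log2 normalized counts (CPM) for 9 libraries and 17605 genes. Library preparation marked strand, and the strand setting of the counting is not given in the sources used here. Columns of comparisons made by the authors were not used. Each value came out as log2 of whole reads plus 0.5 over a library size, with a scale factor per library (100% of values within 0.01 of a whole read), which gave the read totals. RLP genes were compared with limma 3.58.1 in R 4.3.3, with 1 mean per group over all 9 libraries, an intensity trend, and Benjamini-Hochberg adjustment over all 17605 genes. A call is an adjusted p under 0.05. Errors are standard errors of the fit. The script was tested on simulated data.

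Members, lists and motifs were chosen with earlier results of these data known. Named genes were called members, the 5 largest differences per comparison among members whose groups lay apart, members with a role known from Arabidopsis, and the 3 highest and 3 lowest levels. Partners and leaf markers were fixed lists. Windows, coding sequences and neighbours came from the RefSeq TAIR10.1 genome, read at the deposited gene starts. Alternatives were voom on recovered reads, vooma weights, no trend, quantile normalization, centring on medians, addition of 1 CPM, a mean log2 level of at least 0, a fit to the 2 groups alone, a replicate block, and each library left out. The deviations of same-numbered libraries correlated at 0.335, 0.775 and 0.318 between EE and control, at 0.553, 0.764 and 0.526 between EE and oviposition, and at 0.0226, 0.674 and -0.157 between oviposition and control, so that the first 2 comparisons met the rule for pairing, every value over 0.1. Replicates 1 and 3 of EE and control correlated across numbers as well (0.432 and 0.349). Numbers came from the sample titles. The main fit had no term for the replicate, so pairing entered only through the replicate block among the alternatives.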

Additional observations from a re-analysis of the deposited data

How the results depend on the processing

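Of the 1125 values of the 21 named members under alternatives, 997 kept their direction and their side of the threshold, 89 lost a call, 14 gained one and 25 turned sign, always without a call. The cause of these changes was not tested. Centring on medians could not change a value, since every library already had a median log2 of 4.19. The fits with vooma weights, no trend, a replicate block or only the 2 groups kept the log2 fold changes, so they could not turn a sign. The oviposition count of 7 members became 1 with vooma weights, 1 with only the 2 groups and 1 with voom on recovered reads, and 2 to 8 with a library left out. The EE count of 10 became 5 under each of these 3 settings, and 4 to 11 with a library left out. The replicate block gave 9 members for oviposition, adding RLP7 (adjusted p = 0.0495) and RLP40 (adjusted p = 0.0234), and 1 partner against 0, and it gave the same 10 members for EE. EE called 2 partners, both raised, 1 with vooma weights, 1 with only the 2 groups and 1 with voom on recovered reads, and 0 to 3 with a library left out. It called 3, of which 2 were raised and 1 (STOMAGEN) lowered, with the replicate block, with quantile normalization and without control replicate 2. EE against oviposition gave 0 members in every setting. Over all genes, oviposition called 264 (77 with vooma weights, 54 with only the 2 groups, 164 with quantile normalization, 67 with voom, 114 to 333 with a library left out) and EE 532 (334 with vooma weights, 343 with voom, 210 to 774 with a library left out). EE against oviposition called 3 (14 with quantile normalization, 36 with 1 CPM added).

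Signs turned for main values of at most 0.78 in size, with 1 exception. RLP21 for EE had a main value of 1.57, with all EE libraries above the controls. Quantile normalization gave RLP54 -0.0098 for oviposition, RLP21 -0.44 for EE and RLP42 0.0074 for EE against oviposition, where voom gave 0.0061. With a library left out, the oviposition value was -0.21 to 0.067 for RLP4, -0.34 to 0.92 for RLP19, -1.15 to 0.24 for RLP51 and -0.16 to 0.28 for RLP54. The EE value was -0.18 to 1.31 for RLP1, -0.18 to 0.54 for RLP32 and -0.41 to 0.20 for RLP51. EE against oviposition gave -0.72 to 0.0022 for RLP1, -0.0094 to 1.17 for RLP19, -0.19 to 0.74 for RLP20, -0.55 to 0.27 for RLP40, -0.15 to 0.28 for RLP41, -0.24 to 0.078 for RLP42, -0.33 to 1.05 for RLP51 and -0.043 to 0.40 for RLP54. Medians of the members stayed above 0 in every setting. Counting error limits RLP11, RLP20, RLP21 and RLP22, which had at most 11 reads in any control.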
